A study of Mus musculus with 24 samples.

Results

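The comparison set whole brain against liver in male Acads+/+ mice of the BALB/cByKZ substrain that ate the low-fat (LF) diet. It rests on 6 of the 24 arrays of the series, 3 of brain and 3 of liver. They were chosen by genotype and diet. Acads encodes short-chain acyl-CoA dehydrogenase, the mitochondrial enzyme that starts the oxidation of short-chain fatty acids, and BALB/cByJ mice (Acads-/-), the other genotype of the study, carry a deletion in it. The mice were 12 weeks old, were housed singly, ate chow from weaning and were then given the LF diet (D12329) or the high-fat (HF) diet (D12331) for 2 days. BALB/cByKZ was separated from BALB/cByJ long ago, so other undetected mutations may differ between the substrains. The titles and the treatment field of the 3 liver samples give the LF diet, while their source name gives the HF diet, and the former were used. The column names of the signals carry the same 3 numbers in brain and in liver, and no source states that they mark the same mice.

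The hepatocyte, the main cell of the liver, secretes most plasma proteins, stores and releases glucose, makes bile acids and urea, and oxidises or modifies foreign compounds and fatty acids. Brain tissue holds neurons, which transmit signals through vesicles, receptors and ion channels, and glia, which make myelin, take up transmitters and supply metabolites. Brain draws on glucose and ketone bodies and depends on the liver for both.

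Each array gave 1 chemiluminescence signal for each of 33012 probes. The median signal of a brain array was 1228 to 1357, and that of a liver array 340 to 353. The arrays were therefore quantile-normalized together, and a level below is the log2 of the normalized signal, with values under 7.50 raised to that floor. A probe was called where the Benjamini-Hochberg adjusted p of limma over all probes was under 0.05 and the levels differed by at least 1.6-fold. Replicates were closer in brain than in liver, with Pearson's r of 0.968 to 0.972 between brain arrays and 0.894 to 0.904 between liver arrays across probes, against 0.638 to 0.668 between the tissues. The median SD of probes above the median signal was 0.19 in brain and 0.40 in liver. Whole tissue was measured, so that fewer cells of a type and less RNA per cell cannot be told apart.

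**Figure D1:**
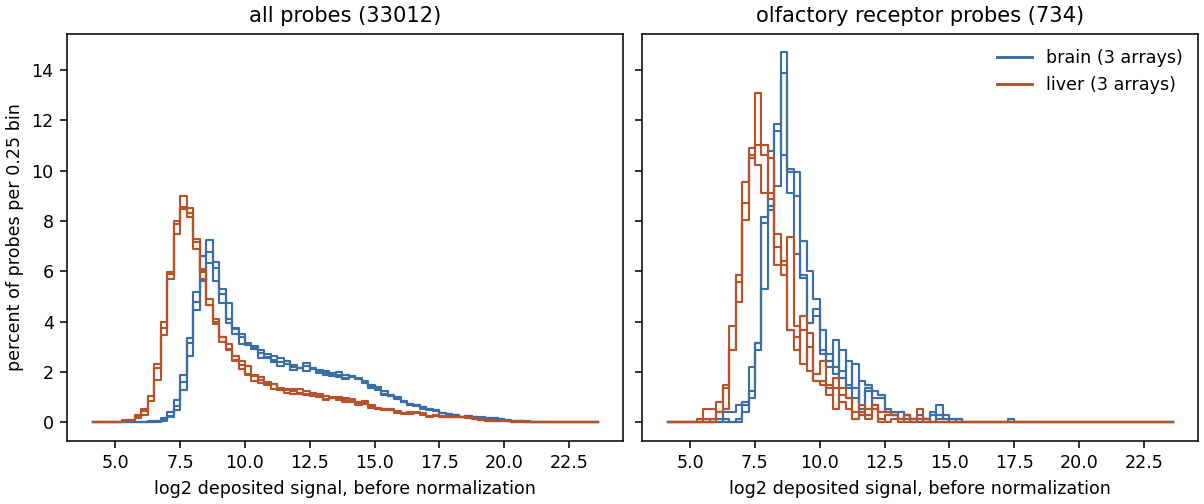
Distribution of the deposited signals (log2, x axis) as the percent of probes in each bin of 0.25 (y axis), for each of the 3 brain arrays (blue) and 3 liver arrays (orange), over all 33012 probes and over 734 olfactory receptor probes. The brain curves lie to the right of the liver curves in both panels.

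Of all probes 12359 (37.4%) were called, of which 6246 (18.9%) were higher in brain and 6113 (18.5%) were higher in liver. This split followed the scaling, since it was 6563 and 9815 after median scaling, 19791 and 1702 with no scaling, 8985 and 4256 when the arrays were scaled on reference genes, and 10927 and 3061 when they were scaled on olfactory receptors. A probe called in 1 direction under all 5 scalings is marked as such below: 5485 probes (16.6%) were higher in brain and 1702 (5.16%) in liver, together 21.8%. Among 13840 named genes, each read by its brightest probe, 6335 (45.8%) were called, 3235 (23.4%) higher in brain and 3100 (22.4%) in liver, of which 2892 (20.9%) and 1027 (7.42%), together 28.3%, held under all 5 scalings. The groups of 3 arrays did not overlap for 59.3% of named genes. Differences of 64-fold or more were seen for 271 genes higher in brain and 272 higher in liver. The median difference over named genes was 0.07 on the log2 scale, higher in liver. Over all probes the median of brain minus liver was -0.14, against -0.49 after median scaling, 1.33 with no scaling, 0.14 when scaled on reference genes and 0.47 when scaled on olfactory receptors. The lists below were described by such counts and medians, with no test of a list.

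**Figure D2:**
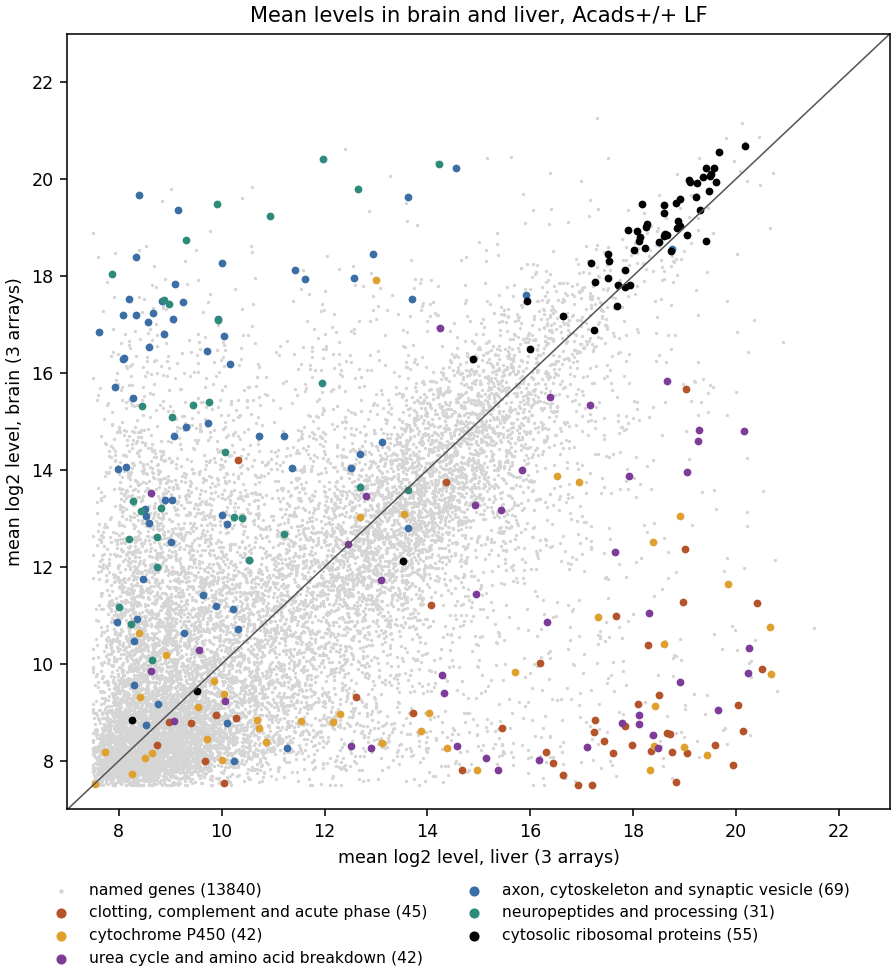
Mean log2 level of 13840 named genes in liver (x axis, 3 arrays) and brain (y axis, 3 arrays), with members of 6 gene groups coloured and the line of equal level drawn. Genes of clotting, complement, P450 enzymes and amino acid breakdown extend along the lower right edge, genes of axons, vesicles and peptides along the upper left, and ribosomal proteins lie near the line.

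The tissue labels were checked against marker genes. Albumin (Alb) read 10.45, 11.51 and 8.95 in the brain arrays and 19.88, 19.63 and 19.67 in the liver arrays. Cyp2e1, a P450 enzyme of the hepatocyte, read 11.31, 10.88 and 10.11 in the brain arrays and 20.62, 20.65 and 20.73 in the liver arrays, and Apoa1, the main protein of high-density lipoprotein, read 9.77, 7.50 and 9.27 in the brain arrays and 16.65, 16.63 and 16.57 in the liver arrays. In each case every liver array lay above every brain array. Of the neuronal markers, Stmn2 (stathmin 2, an axonal tubulin regulator) read 19.49, 19.26 and 19.33 in the brain arrays and 11.15, 7.64 and 8.67 in the liver arrays, Nefl (neurofilament light chain) 17.39, 17.74 and 17.32 in the brain arrays and 9.10, 8.70 and 8.71 in the liver arrays and Camk2a (a kinase of the postsynaptic density) 15.08, 15.33 and 15.01 in the brain arrays and 7.98, 9.07 and 8.36 in the liver arrays. Snap25, Syp and Syt1, proteins of vesicle release, were higher in brain by smaller amounts, at 2.90, 2.57 and 1.46. Of 7 hepatocyte markers, 6 were higher in liver, 0 were higher in brain and 1 was not called (6 and 0 held under all 5 scalings), with a median 7.03 higher in liver. The 1 that was not called was transthyretin (Ttr), a carrier of thyroid hormone and retinol that liver and choroid plexus both secrete, which read 20.82, 20.93 and 20.85 in the brain arrays and 20.38, 20.41 and 20.55 in the liver arrays (adjusted p = 0.168). All 9 neuron markers were higher in brain (8 held under all 5 scalings), with a median 3.49 higher in brain. Ppia (cyclophilin A), the reference gene of the study's PCR, read 20.65, 20.62 and 20.51 in the brain arrays and 19.65, 19.61 and 19.66 in the liver arrays, a difference of 0.96 (SE 0.20, adjusted p = 0.0116) that was called in brain's favour under this scaling, while brain minus liver was -0.47 after median scaling.

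One brain array stood apart in hormones of the pituitary gland, which lies under the brain. Growth hormone (Gh), named like the next 3 genes after its values were seen, read 19.90 in 1 brain array and no more than 8.26 in the other 5 arrays. Prolactin (Prl) read 8.58, 18.99 and 8.43 in the brain arrays, the hormone subunit Cga 8.58, 18.33 and 9.71 and Pomc, the corticotropin precursor, 8.66, 16.76 and 8.11. The high value in each was that of the array with column number 18020, and the brain arrays of the other numbers read 9.71 or less. None of 6 measured pituitary hormones was called (limma, 0 with an unadjusted p under 0.05). Without this array 4961 probes were higher in brain and 4649 in liver, and the counts of 9 or more genes that this moved by over 1.5 times are given with the lists described. Without the brain array of number 17962 the probe counts were 4869 and 4591, and without that of 18021 they were 4809 and 4596. Fewer calls over all probes are thus not particular to the array with pituitary hormones. The lists were not counted without those other arrays. The part of the array with pituitary hormones in other differences was not tested.

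The 12 largest differences in liver's favour were those of Apoh, Mup21, Serpinc1, Apof, Pzp, Cyp8b1, Cfi, Kng1, Kng2, G6pc, Pck1 and Azgp1. Most encode secreted plasma proteins. The brain means of these genes were all below the 90th percentile of olfactory receptor probes in brain (10.07), and the liver means of the 12 genes highest in brain's favour, given further on, below that in liver (11.34), so that the low side is no firm level and neither the size nor the order of such differences is exact. Apoh, a phospholipid-binding plasma glycoprotein, read 8.32, 7.57 and 7.88 in the brain arrays and 19.83, 19.99 and 20.00 in the liver arrays, a difference of 12.01 (SE 0.27, adjusted p = 8.83e-06). Mup21, a major urinary protein made in liver, read 8.49, 8.39 and 8.73 in the brain arrays and 20.22, 20.51 and 20.11 in the liver arrays, and Serpinc1 (antithrombin), the main brake on thrombin, read 8.63, 8.52 and 8.71 in the brain arrays and 20.08, 20.28 and 20.05 in the liver arrays. The brain values of all 3 stayed close to the floor, and no liver value came near them. Kng1, the kininogen that releases bradykinin, read 7.50, 7.50 and 7.71 in the brain arrays and 17.75, 19.43 and 19.33 in the liver arrays, with 2 of 3 brain arrays at the floor and 1 liver array below the other 2.

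The list of 12 also held 3 enzymes of glucose and bile acid metabolism. G6pc, the glucose-6-phosphatase subunit that frees glucose for export, read 7.64, 9.12 and 7.50 in the brain arrays and 19.42, 19.09 and 19.34 in the liver arrays, a difference of 11.20 (SE 0.47, adjusted p = 1.85e-05). Pck1, the cytosolic phosphoenolpyruvate carboxykinase of gluconeogenesis, read 9.38, 7.61 and 9.05 in the brain arrays and 19.85, 19.80 and 19.73 in the liver arrays, a difference of 11.12 (SE 0.48, adjusted p = 2.04e-05). Cyp8b1, the sterol 12-alpha-hydroxylase that sets the share of cholic acid in bile, read 8.31, 8.15 and 7.91 in the brain arrays and 19.54, 19.20 and 19.55 in the liver arrays, a difference of 11.31 (SE 0.24, adjusted p = 8.83e-06). The liver arrays lay close together for these enzymes, and the brain arrays of G6pc and Pck1 were low but spread more widely, with 1 of G6pc at the floor.

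**Figure D3:**
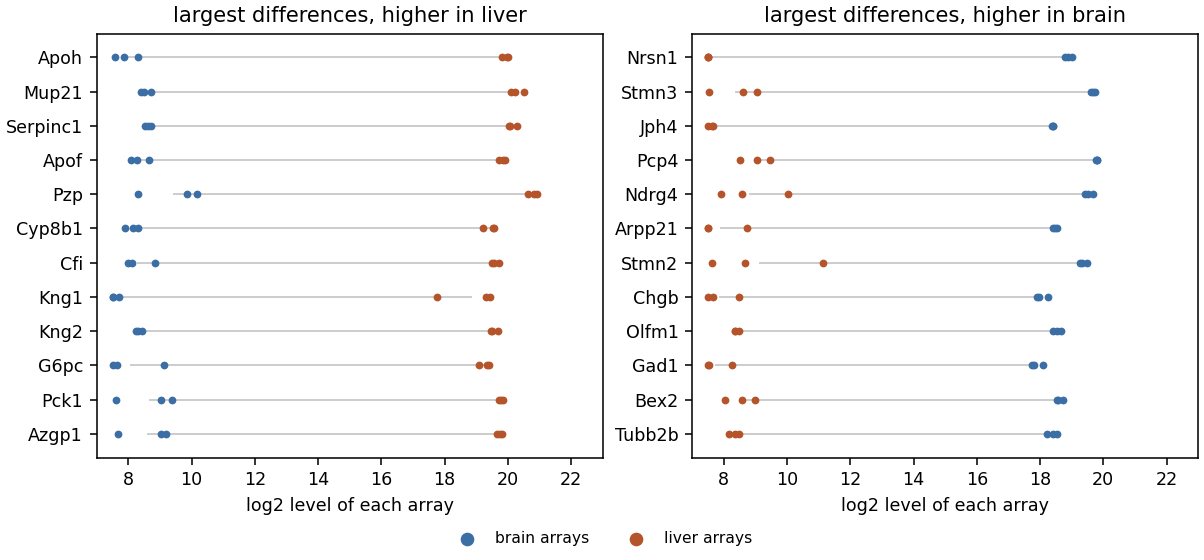
Log2 level (x axis) of every brain array (blue points) and liver array (orange points) for the 12 named genes with the largest difference in each direction, with a grey line between the group means. The points of the high tissue mostly lie close together, and those of the low tissue spread just above the floor of 7.50.

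The promoters of 4 liver genes are shown because they carry, before the start of transcription, short motifs that textbooks tie to hepatocyte genes: the TATA box TATAAA, which places the start, and GTTAAT, 1 arm of the palindrome that hepatocyte nuclear factor 1 binds. Capitals mark every match of these and of 3 motifs of neural genes named further on, on either strand. Each run covers 250 bases before and 50 bases from the start, 5′ to 3′ on the gene's strand, from RefSeq on GRCm38.p6.
Fabp1 (chr6:71199629-71199928, plus strand): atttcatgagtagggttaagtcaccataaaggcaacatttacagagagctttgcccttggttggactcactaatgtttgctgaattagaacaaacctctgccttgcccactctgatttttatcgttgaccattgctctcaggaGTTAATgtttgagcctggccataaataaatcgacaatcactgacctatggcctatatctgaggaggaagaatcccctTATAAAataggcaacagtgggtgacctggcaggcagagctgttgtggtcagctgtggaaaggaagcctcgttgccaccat
G6pc (chr11:101367466-101367765, plus strand): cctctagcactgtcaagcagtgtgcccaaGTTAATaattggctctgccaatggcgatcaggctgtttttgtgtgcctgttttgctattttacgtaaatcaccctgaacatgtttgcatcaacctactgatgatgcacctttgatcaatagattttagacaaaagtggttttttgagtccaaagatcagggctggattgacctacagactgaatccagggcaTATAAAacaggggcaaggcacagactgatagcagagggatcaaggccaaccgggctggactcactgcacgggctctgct
Cyp8b1 (chr9:121916256-121916555, minus strand): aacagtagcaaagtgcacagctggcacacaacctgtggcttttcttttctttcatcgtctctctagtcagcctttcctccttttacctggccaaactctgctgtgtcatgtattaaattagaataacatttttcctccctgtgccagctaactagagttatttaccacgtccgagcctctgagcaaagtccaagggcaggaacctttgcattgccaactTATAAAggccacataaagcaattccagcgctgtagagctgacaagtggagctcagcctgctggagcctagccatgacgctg
Fgb (chr3:83049814-83050113, minus strand): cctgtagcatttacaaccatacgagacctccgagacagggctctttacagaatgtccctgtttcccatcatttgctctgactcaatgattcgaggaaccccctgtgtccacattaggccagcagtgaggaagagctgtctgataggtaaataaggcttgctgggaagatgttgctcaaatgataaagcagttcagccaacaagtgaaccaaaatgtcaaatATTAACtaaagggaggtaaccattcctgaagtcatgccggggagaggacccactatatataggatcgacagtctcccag
The TATA box began 30, 29 and 31 bases before the start in Fabp1, G6pc and Cyp8b1. GTTAAT lay 107 bases before the start of Fabp1, 221 before that of G6pc and, on the other strand, 29 before that of Fgb. A match is a description of letters and was not tested as a binding site.

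Plasma proteins made up much of the liver side. Of 20 measured genes for clotting factors and their regulators, 15 were higher in liver, 1 was higher in brain and 4 were not called (15 and 1 held under all 5 scalings), with a median 8.78 higher in liver. Beside Apoh, Serpinc1 and Kng1, the differences were F10 by 10.89, Fgb by 10.15 and Proc by 10.09. F10 is the factor that turns prothrombin into thrombin, Fgb the beta chain of fibrinogen and Proc the precursor of the anticoagulant protein C. Fgb read 8.22, 8.35 and 8.04 in the brain arrays and 18.44, 18.55 and 18.06 in the liver arrays. The exception was vitronectin (Vtn), which was higher in brain by 3.89 (SE 0.38, adjusted p = 0.000435), at 14.35, 13.83 and 14.43 in the brain arrays and 9.99, 11.02 and 9.93 in the liver arrays. Its liver values lay under the 90th percentile of olfactory receptor probes in liver (11.34), and what sets them was not tested.

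The 4 genes of this list that were not called, named after their values were seen, were Plg, Hrg, F5 and F7. Plg (plasminogen) read 8.32, 10.30 and 8.21 in the brain arrays and 9.19, 10.17 and 10.31 in the liver arrays. Hrg read 8.78 in brain and 9.40 in liver, F5 8.79 in brain and 8.98 in liver and F7 8.32 in brain and 8.74 in liver. These liver means lay near those of olfactory receptor probes, whose median level in liver was 8.92 and whose 90th percentile was 11.34. Hc (complement C5), Itih4 and Fetub, which encode liver plasma proteins too and were not called, had liver means in the same range (9.67, 10.28 and 10.36).

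Of 25 genes of complement and the acute phase, 22 were higher in liver, 0 were higher in brain and 3 were not called (20 and 0 held under all 5 scalings), with a median 8.43 higher in liver. The largest were Cfi by 11.28, Hp by 10.89, Hpx by 10.61, C9 by 10.57, Crp by 10.17 and Masp1 by at least 9.70. Cfi cuts activated complement, Hp and Hpx bind free haemoglobin and haem, C9 forms the membrane pore, Crp binds bacterial surfaces and Masp1 starts the lectin pathway. For Masp1 all 3 brain arrays were at the floor. Serpina3n, one of the 3 not called, read 13.75 in brain and 14.35 in liver.

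Of 18 carriers and hormones of plasma, 14 were higher in liver, 2 were higher in brain and 2 were not called (13 and 2 held under all 5 scalings), with a median 6.34 higher in liver. Among them were Pzp by 11.35, Azgp1 by 11.12, Hamp by 9.88, Alb by 9.42, Serpina6 by 9.03 and Igfals by 8.76. Hamp (hepcidin), the hormone that lowers iron export, read 11.10, 10.42 and 9.94 in the brain arrays and 20.21, 20.41 and 20.47 in the liver arrays. Pzp is a broad protease trap, Serpina6 carries corticosteroids and Igfals holds insulin-like growth factor in the circulation. The 2 higher in brain were Trf (transferrin) by 2.34 (SE 0.25, adjusted p = 0.000589) and Agt (angiotensinogen, which astrocytes also make) by 2.76 (SE 0.57, adjusted p = 0.0102). The liver mean of Agt (9.97) lay under the 90th percentile of olfactory receptor probes in liver (11.34). Trf read 14.21, 14.03 and 14.03 in the brain arrays and 11.99, 11.83 and 11.43 in the liver arrays, and in the other 3 groups of mice it was higher in brain by 2.60, 3.39 and 2.18. Its liver mean (11.75) lay just above the 90th percentile of olfactory receptor probes in liver (11.34). Trf rests on 1 probe, the same in every group, and what sets its liver level was not tested.

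Apolipoproteins divided between the tissues. Of 17 genes of lipoproteins, 8 were higher in liver, 6 were higher in brain and 3 were not called (8 and 5 held under all 5 scalings), with a median 0.72 higher in liver. Apof, Apoc4, Apoc2, Apoc3, Apom and Apoa2 were higher in liver by 11.48, 10.57, 10.52, 9.14, 9.01 and 8.62. Apoe and Apod, which glia secrete, went the other way: Apoe read 20.45, 20.35 and 20.50 in the brain arrays and 15.99, 14.62 and 14.86 in the liver arrays, and Apod 17.32, 17.07 and 17.37 in the brain arrays and 8.11, 9.12 and 8.79 in the liver arrays. The sterol exporter Abcg1 was higher in brain by 3.27 and the exporter Abca1 by 1.40. The median of this list was 2.05 higher in liver after median scaling and 0.15 with no scaling.

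Of 42 cytochrome P450 genes, 26 were higher in liver, 3 were higher in brain and 13 were not called (21 and 3 held under all 5 scalings), with a median 2.95 higher in liver. After Cyp8b1 came Cyp2d9 by 10.89, Cyp1a2 by 10.70, Cyp3a25 by 10.52, Cyp2d10 by 10.10 and Cyp2e1 by 9.90. Cyp1a2 oxidises caffeine and aromatic amines, and the Cyp2d and Cyp3a enzymes act on many drugs. The 3 P450 genes higher in brain were Cyp46a1 by 4.93, Cyp4f13 by 2.23 and Cyp2d22 by 1.27. Cyp46a1, the neuronal cholesterol 24-hydroxylase that lets cholesterol leave the brain, read 17.89, 17.97 and 17.90 in the brain arrays and 13.09, 12.56 and 13.33 in the liver arrays. Members of the P450 families share sequence, and which transcripts a probe also binds was not tested.

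Of 30 genes of conjugation and related phase II steps, 21 were higher in liver, 5 were higher in brain and 4 were not called (20 and 5 held under all 5 scalings), with a median 4.97 higher in liver. The leading ones were Ugt2b5 by 10.27, Ugt2a3 by 9.53, Glyat by 9.32, Gsta3 by 9.29, Inmt by 8.87 and Ugt2b34 by 8.44, enzymes that add glucuronic acid, glycine, glutathione or methyl groups. Those higher in brain were Sult4a1 by 6.90, Ephx1 by 4.31, Gstm1 by 4.16 and Gstm5 by 3.35, and Ephx2. Sult4a1 is a sulfotransferase known as brain-specific. Deposited liver signals were 159 to 214 for Ephx1, 147 to 292 for Gstm1 and 201 to 352 for Ephx2. They lay near the olfactory receptor medians of these arrays (242 to 252) and are no firm level. What sets them was not tested. Bile acid genes gave calls in liver's favour only: of 23 such genes, 17 were higher in liver, 0 were higher in brain and 6 were not called (15 and 0 held under all 5 scalings), with a median 5.87 higher in liver. Slco1b2, Slco1a1 and Slc10a1, which take bile acids and other anions up from blood, were higher in liver by 9.57, 9.03 and 8.19. Slc27a5, which activates bile acids, was higher by 8.67, and Acox2, which shortens their side chain, by 8.88. Cyp7a1, the rate-limiting enzyme of bile acid synthesis, was higher in liver under quantile scaling, at 3.35 (SE 0.95, adjusted p = 0.034), but was not called under all 5 scalings.

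Amino acid breakdown was a further block of liver genes. Of 42 genes of the urea cycle and amino acid breakdown, 34 were higher in liver, 3 were higher in brain and 5 were not called (30 and 2 held under all 5 scalings), with a median 4.65 higher in liver. Hpd, which breaks down tyrosine, read 8.48, 9.14 and 9.54 in the brain arrays and 19.48, 19.64 and 19.84 in the liver arrays. Bhmt and Mat1a, which remake methionine and turn it into the methyl donor S-adenosylmethionine, were higher in liver by 10.43 and 9.94. Arg1 (arginase 1), the last step of the urea cycle, read 7.61, 9.09 and 8.12 in the brain arrays and 18.45, 18.59 and 18.42 in the liver arrays. Dmgdh and Tdo2, for choline and tryptophan breakdown, were higher by 9.85 and 9.37. The 3 that went the other way were Oat by 4.91, Got1 by 2.67 and Cth by 1.23. Oat (ornithine aminotransferase) read 13.81, 13.18 and 13.59 in the brain arrays and 8.78, 8.31 and 8.76 in the liver arrays. Deposited liver signals were 192.8 to 244.2 for Oat and 180.5 to 278.7 for Cth. They lay near the olfactory receptor medians of these arrays (242 to 252) and are no firm level. What sets them was not tested.

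Glucose output was read through 16 genes. Of these, 13 were higher in liver, 1 was higher in brain and 2 were not called (12 and 1 held under all 5 scalings), with a median 6.02 higher in liver. Beside G6pc and Pck1 they included Fbp1 by 10.50, Gys2 by 9.67, Slc2a2 by 7.94 and Ppp1r3b by 6.98. Fbp1 (fructose-1,6-bisphosphatase) reverses the committed step of glycolysis, Slc2a2 is the bidirectional glucose transporter of the hepatocyte, and Gys2 is the liver glycogen synthase. Gcgr, the glucagon receptor, was the exception: it read 10.49, 10.16 and 10.38 in the brain arrays and 8.28, 7.97 and 7.63 in the liver arrays, higher in brain by 2.38 (SE 0.26, adjusted p = 0.000741). These liver values lay under the median of olfactory receptor probes in liver (8.92) and are no firm level. What sets them was not tested.

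Acads itself read 9.18, 10.39 and 10.34 in the brain arrays and 12.24, 12.20 and 9.95 in the liver arrays. The brain values lay near the 90th percentile of olfactory receptor probes in brain (10.07) and are no firm level. The lowest liver value lay under that percentile in liver (11.34). Levels of Acads overlapped between the tissues, and the difference of 1.49 in liver's favour (SE 0.71, adjusted p = 0.156) did not pass the test. The direction depended on the scaling, since brain minus liver was -1.16 after median scaling, -0.50 on reference genes, -0.14 on olfactory receptors and 0.74 with no scaling, none of which passed. Without the lowest liver array (column number 18021) it was 2.28 (adjusted p = 0.0153). In the other 3 groups of mice it was 1.24, 1.02 and 0.65 higher in liver, none of which passed. The gene lies on chromosome 5 (GRCm38.p6, 115110299 to 115119346).

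The other genes of mitochondrial fatty acid oxidation were mostly higher in liver. Of 23 genes on this list, 15 were higher in liver, 1 was higher in brain and 7 were not called (11 and 1 held under all 5 scalings), with a median 2.19 higher in liver. Acadvl and Acadl, the dehydrogenases for very long and long chains, read 15.81 in brain and 19.21 in liver and 14.13 in brain and 16.91 in liver, differences of 3.40 (SE 0.21, adjusted p = 6.93e-05) and 2.78 (SE 0.21, adjusted p = 0.00014). Acad11 differed by 4.73, Gcdh (glutaryl-CoA dehydrogenase) by 4.62, Cpt2, the inner carnitine palmitoyltransferase, by 4.49, Acsl5, which activates long-chain acids, by 3.93 and Decr1, which handles double bonds, by 3.79. Hadhb, the beta subunit of the trifunctional protein, was higher in liver by 0.71 under quantile scaling but not under all 5. Hadha, the alpha subunit, read 11.13 in brain and 10.42 in liver and was not called. That liver mean lay under the 90th percentile of olfactory receptor probes in liver (11.34), and what sets it was not tested. Acad9, which also assembles complex I, was the only one called in brain's favour, at 11.55, 11.40 and 11.77 in the brain arrays and 8.28, 7.85 and 7.95 in the liver arrays.

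Carnitine palmitoyltransferase 1, the entry gate to this pathway, has 3 genes. Cpt1a, the liver form, read 8.59, 8.38 and 8.11 in the brain arrays and 12.26, 8.37 and 9.22 in the liver arrays, with 1 liver array far above the other 2, and was not called (adjusted p = 0.258). The lower 2 liver values lay near the median of olfactory receptor probes in liver (8.92) and are no firm level. Cpt1b, known as the muscle form, was higher in liver by 4.93 (SE 0.30, adjusted p = 6.43e-05). Cpt1c, known as the brain form, read 14.42, 14.23 and 14.24 in the brain arrays and 11.82, 12.33 and 11.20 in the liver arrays and was higher in brain by 2.51 (SE 0.33, adjusted p = 0.00165).

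Of 20 genes of peroxisomal and omega oxidation, 13 were higher in liver, 1 was higher in brain and 6 were not called (11 and 1 held under all 5 scalings), with a median 3.40 higher in liver, led by Acaa1b (peroxisomal thiolase) with 8.96, Acox2, Acot12 with 7.29 and Ehhadh (the bifunctional enzyme) with 6.29. Hsd17b4 was the 1 higher in brain, by 1.74. Its deposited liver signals were 223 to 330, near the olfactory receptor medians of these arrays (242 to 252), and what sets them was not tested. Among 6 genes of ketone bodies, Bdh1 (3-hydroxybutyrate dehydrogenase) was higher in liver by 2.24 (SE 0.22, adjusted p = 0.000465) and Bdh2 by 3.95. Oxct1, the enzyme that lets tissues other than liver burn ketone bodies, read 13.64, 13.03 and 13.90 in the brain arrays and 8.79, 8.84 and 9.03 in the liver arrays and was higher in brain by 4.64 (SE 0.29, adjusted p = 7.59e-05). The liver values of Oxct1 were near the floor. Acat1, Slc16a1 and Slc16a6 were not called.

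Genes of lipid synthesis were called in both directions. Of 25 genes of fatty acid and triglyceride synthesis, 14 were higher in liver, 6 were higher in brain and 5 were not called (9 and 5 held under all 5 scalings), with a median 1.61 higher in liver. With no scaling that median was 0.21 higher in liver, and in the Acads+/+ HF group brain minus liver was -0.0077. Elovl3, Mlxipl (the glucose-sensing factor ChREBP), Gpam and Dgat2 were higher in liver by 10.12, 6.02, 5.59 and 4.21. Elovl4, which makes the very long chains of retina and brain, read 14.92, 14.97 and 14.86 in the brain arrays and 7.69, 8.39 and 7.50 in the liver arrays and Scd2, the desaturase of brain, 19.52, 19.48 and 19.48 in the brain arrays and 13.35, 13.57 and 13.84 in the liver arrays. Acly (ATP-citrate lyase) was higher in brain by 3.28 and Elovl7 by 4.41. Of 16 genes of cholesterol synthesis and its control, 11 were higher in liver, 1 was higher in brain and 4 were not called (5 and 1 held under all 5 scalings), with a median 1.19 higher in liver. Insig2, Sc5d, Tm7sf2 and Ebp were higher in liver by 4.19, 3.29, 3.21 and 2.92, while Dhcr7, the last enzyme of the pathway, was higher in brain by 3.18. Deposited liver signals were 227 to 309 for Acly and 87 to 288 for Dhcr7, near the olfactory receptor medians of these arrays (242 to 252). What sets these low liver signals was not tested. With no scaling the median of the cholesterol list lay 0.20 higher in brain, and without the brain array that held pituitary hormones 7 of its genes were higher in liver.

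Of 22 transcription factors of the hepatocyte, 18 were higher in liver, 0 were higher in brain and 4 were not called (15 and 0 held under all 5 scalings), with a median 3.30 higher in liver. Nr1h4 (FXR, the bile acid receptor) read 8.16, 7.71 and 8.71 in the brain arrays and 15.43, 15.31 and 15.68 in the liver arrays. Nr0b2, Nr1i3, Ppara, Foxa2 and Foxa3 were higher in liver by 6.75, 6.66, 6.13, 5.93 and 5.87. Nr0b2 represses bile acid synthesis, Nr1i3 (CAR) responds to drugs, Ppara drives fatty acid oxidation, and the Foxa factors open chromatin of liver genes. Other cells of the liver were seen as well. Of 15 markers of Kupffer cells, the resident macrophages, 12 were higher in liver, 0 were higher in brain and 3 were not called (9 and 0 held under all 5 scalings), with a median 3.40 higher in liver. Cd5l and Clec4f, which mark Kupffer cells, were higher by 7.51 and 6.92. Of 13 markers of the sinusoidal endothelium, 10 were higher in liver, 0 were higher in brain and 3 were not called (8 and 0 held under all 5 scalings), with a median 4.26 higher in liver, with Oit3 by 6.67, Fcna by 6.45, Clec4g by 5.86 and Stab2, a scavenger receptor, by 5.80. Of 8 bile duct markers, Krt8 and Krt18, keratins that hepatocytes also hold, led with 6.96 and 6.78, and Sox9 was higher in brain by 3.57.

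The 12 largest differences in brain's favour were those of Nrsn1, Stmn3, Jph4, Pcp4, Ndrg4, Arpp21, Stmn2, Chgb, Olfm1, Gad1, Bex2 and Tubb2b. Nrsn1 (neurensin 1), a vesicle protein of neurons, read 18.90, 18.77 and 19.01 in the brain arrays and 7.50, 7.50 and 7.50 in the liver arrays. All its liver arrays were at the floor, so that the difference was at least 11.39. Stmn3 (stathmin 3) read 19.66, 19.61 and 19.75 in the brain arrays and 7.54, 9.04 and 8.59 in the liver arrays, a difference of 11.28 (SE 0.41, adjusted p = 1.41e-05). Jph4, which ties neuronal endoplasmic reticulum to the cell membrane, read 18.38, 18.41 and 18.40 in the brain arrays and 7.50, 7.65 and 7.62 in the liver arrays, and Pcp4, a calmodulin regulator of Purkinje and other neurons, read 19.77, 19.82 and 19.82 in the brain arrays and 8.51, 9.06 and 9.45 in the liver arrays. Gad1, the enzyme that makes the transmitter GABA, read 17.80, 17.74 and 18.10 in the brain arrays and 8.27, 7.52 and 7.50 in the liver arrays, a difference of 10.12 (SE 0.30, adjusted p = 1.10e-05). The brain arrays agreed closely for all of these. Stmn2 was less even in liver, where 1 array stood far above the others.

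The promoters of 4 neuronal genes are shown because they hold letters of motifs known from such genes. TTCAGCACC and GGACAGCGC are the left and right arms of RE1, the element through which the repressor REST silences neuronal genes in other tissues, and TGACGTCA is the cAMP response element (CRE). They are written in the same way as the liver promoters above.
Syn1 (chrX:20920869-20921168, minus strand): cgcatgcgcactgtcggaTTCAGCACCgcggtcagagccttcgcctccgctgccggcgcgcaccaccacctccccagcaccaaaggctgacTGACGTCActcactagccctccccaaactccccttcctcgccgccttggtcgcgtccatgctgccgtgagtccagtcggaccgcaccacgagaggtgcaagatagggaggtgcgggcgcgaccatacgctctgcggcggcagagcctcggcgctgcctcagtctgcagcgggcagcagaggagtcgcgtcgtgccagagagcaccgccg
Scg2 (chr1:79439977-79440276, minus strand): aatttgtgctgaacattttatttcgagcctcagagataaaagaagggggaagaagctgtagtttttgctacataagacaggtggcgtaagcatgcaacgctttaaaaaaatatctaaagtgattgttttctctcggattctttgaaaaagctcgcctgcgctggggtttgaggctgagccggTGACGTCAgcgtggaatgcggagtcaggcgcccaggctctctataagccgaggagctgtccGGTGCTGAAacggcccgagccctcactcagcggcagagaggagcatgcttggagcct
Gria2 (chr3:80802786-80803085, minus strand): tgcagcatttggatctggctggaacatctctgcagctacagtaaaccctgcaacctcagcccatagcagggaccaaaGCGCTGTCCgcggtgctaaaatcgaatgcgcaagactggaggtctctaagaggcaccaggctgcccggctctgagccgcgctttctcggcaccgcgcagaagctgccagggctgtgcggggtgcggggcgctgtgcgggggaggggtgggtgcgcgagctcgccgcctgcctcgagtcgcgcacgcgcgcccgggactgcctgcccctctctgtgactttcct
Chgb (chr2:132781392-132781691, plus strand): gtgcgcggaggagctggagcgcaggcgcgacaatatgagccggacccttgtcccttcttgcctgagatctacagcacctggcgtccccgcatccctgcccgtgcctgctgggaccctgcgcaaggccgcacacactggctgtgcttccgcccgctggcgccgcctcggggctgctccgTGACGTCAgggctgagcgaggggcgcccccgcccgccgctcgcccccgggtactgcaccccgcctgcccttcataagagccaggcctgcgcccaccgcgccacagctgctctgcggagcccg
Syn1 held the left arm of RE1 232 bases before its start and a CRE at 159. Scg2 held a CRE at 68 and, on the other strand, the left arm at 7. Gria2 held the right arm, on the other strand, at 173, and Chgb a CRE at 72. None of the 4 held TATAAA. CG pairs numbered 33 in Syn1, 16 in Scg2, 26 in Gria2 and 31 in Chgb, against 3 in Fabp1, 4 in G6pc, 5 in Cyp8b1 and 5 in Fgb. The promoters shown were chosen after the motif search, so these contrasts may follow from the choice. Over all matched genes called under all 5 scalings, the median was 20 for those higher in brain and 10 for those higher in liver.

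Of 35 genes of axons and the neuronal cytoskeleton, 0 were higher in liver, 29 were higher in brain and 6 were not called (0 and 28 held under all 5 scalings), with a median 6.31 higher in brain. After Stmn3, Stmn2 and Tubb2b came Rbfox1 by 9.33, Ina by 9.24 and Nrxn3 by 9.11. Tubb2b is a beta-tubulin of neurons, Rbfox1 a splicing factor, Ina the filament protein internexin and Nrxn3 a presynaptic adhesion protein. Of 34 genes of synaptic vesicles and release, 3 were higher in liver, 28 were higher in brain and 3 were not called (0 and 28 held under all 5 scalings), with a median 4.08 higher in brain. Cplx1, Syt4, Syn1 and Stx1a were higher in brain by 8.75, 8.22, 8.21 and 7.95. Cplx1 (complexin 1) and Stx1a (syntaxin 1A) act on the fusion complex, Syt4 is a synaptotagmin and Syn1 (synapsin 1) ties vesicles to actin. Syn1 read 16.17, 16.62 and 16.14 in the brain arrays and 7.54, 8.72 and 8.02 in the liver arrays. Slc17a8, Nsf and Slc18a3 were higher in liver under quantile scaling (Nsf by 2.26, Slc18a3 by 0.83), and none of them held under all 5 scalings. Deposited brain signals were 282 to 411 for Nsf and 408 to 444 for Slc17a8. They lay near or under the olfactory receptor medians of the brain arrays (428 to 492), and what sets them was not tested.

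Of 26 genes of glutamate receptors and the postsynaptic density, 0 were higher in liver, 23 were higher in brain and 3 were not called (0 and 23 held under all 5 scalings), with a median 3.41 higher in brain. Nrgn (neurogranin), which binds calmodulin in dendrites, read 19.95, 20.01 and 19.56 in the brain arrays and 10.09, 11.89 and 9.77 in the liver arrays. Gria2 and Gria1, the AMPA receptor subunits, were higher by 7.28 and 6.84, Camk2a by 6.67, Cacng2 (stargazin), which carries AMPA receptors to the synapse, from a mean of 8.41 in liver to 14.41 in brain, and the metabotropic receptor Grm3 by 5.68. Of 26 genes of inhibitory transmission, 3 were higher in liver, 14 were higher in brain and 9 were not called (1 and 14 held under all 5 scalings), with a median 2.78 higher in brain. After Gad1 came Slc6a11 by 7.56, Gabrb2 by 6.77, Gabrb1 by 6.29, Gabrd by 5.24 and Gabra5 by 5.10, a GABA transporter and 4 subunits of the GABA-A receptor. Slc6a12 and Slc6a13, GABA and betaine transporters, and Aldh5a1, which clears GABA, were higher in liver by 5.76, 2.13 and 2.88. Slc6a12 read 9.89, 10.88 and 9.61 in the brain arrays and 15.65, 15.95 and 16.06 in the liver arrays.

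Of 39 subunits of voltage-gated channels, 1 was higher in liver, 19 were higher in brain and 19 were not called (0 and 19 held under all 5 scalings), with a median 1.67 higher in brain. The largest were Kcna1 by 8.36, Cacna2d3 by 6.98, Cacnb4 by 6.26, Kcnd2 by 6.11, Kcnh1 by 5.07 and Kcnip4 by 5.05. Kcna1 and Kcnd2 are potassium channels of axon and dendrite, and Cacna2d3 and Cacnb4 are auxiliary subunits of calcium channels. This list left 19 members without a call, more than the other lists of neuronal genes described here, and it was also the longest of these. Of its members 48.7% were called higher in brain and 2.56% in liver, against 23.4% and 22.4% of all named genes.

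Neuropeptides and the proteins that package and cut them were called in brain's favour for 28 of 31 genes, all 28 under all 5 scalings, and in liver's for 0. Without the brain array that held pituitary hormones 24 of them were called in brain's favour. Chgb (chromogranin B) read 17.91, 18.24 and 17.97 in the brain arrays and 7.50, 8.47 and 7.64 in the liver arrays, Scg5, a chaperone of prohormone convertase, 19.43, 19.51 and 19.52 in the brain arrays and 8.93, 10.64 and 10.14 in the liver arrays and Penk (proenkephalin) 18.75, 18.59 and 18.92 in the brain arrays and 8.39, 9.93 and 9.62 in the liver arrays. Chga, Scg3 and Cpe were higher by 8.64, 8.46 and 8.43. Cpe (carboxypeptidase E) trims peptides after cleavage. The brain arrays agreed closely for each gene written out here, and no liver array overlapped them.

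Of 34 transcription factors of neural cells, 2 were higher in liver, 20 were higher in brain and 12 were not called (1 and 20 held under all 5 scalings), with a median 2.56 higher in brain. Zic1 (cerebellar granule cells), Neurod1, Tbr1, Neurod6 (cortical neurons), Bcl11b and Mef2c were higher in brain by 8.29, 7.96, 7.47, 7.08, 6.57 and 6.55. Eomes, a T-box factor of cortical progenitors that lymphocytes also use, read 10.38, 10.14 and 9.73 in the brain arrays and 14.90, 15.52 and 14.60 in the liver arrays and was higher in liver by 4.92 (SE 0.33, adjusted p = 9.76e-05). It was higher in liver in the other 3 groups as well, by 4.26, 2.96 and 4.29. Olig2 was higher in liver by 1.40 under quantile scaling and did not hold under all 5.

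Glia were read through 3 lists. Of 18 genes of oligodendrocytes and myelin, 1 was higher in liver, 13 were higher in brain and 4 were not called (0 and 12 held under all 5 scalings), with a median 3.36 higher in brain. Mbp (myelin basic protein) read 17.46, 17.09 and 17.49 in the brain arrays and 9.80, 9.26 and 7.50 in the liver arrays, and Omg, Bcas1 and Fa2h, which makes the hydroxy fatty acids of myelin, were also higher in brain, with Fa2h at 15.34 in brain and 8.35 in liver, Omg higher by 8.40 and Bcas1 by 7.78. Of 22 astrocyte genes, 2 were higher in liver, 16 were higher in brain and 4 were not called (1 and 15 held under all 5 scalings), with a median 3.57 higher in brain. They included Ntsr2 by 8.30, Slc6a11 by 7.56, Sparcl1 by 6.80 and Mlc1 by 6.48. Aldh1l1, a folate enzyme that marks astrocytes within the brain, was higher in liver by 4.85, and Glul (glutamine synthetase) read 20.44 in brain and 19.27 in liver. Of 15 microglial genes, 2 were higher in liver, 5 were higher in brain and 8 were not called (0 and 5 held under all 5 scalings), with a median 0.34 higher in brain. Gpr34, P2ry12, Siglech, Tmem119 and Trem2, receptors of microglia, were higher in brain by 4.17, 3.78, 3.61, 3.04 and 2.52, while C1qb and C1qc, which Kupffer cells also express, were 1.25 and 1.29 higher in liver under quantile scaling.

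Of 13 genes of brain endothelium, 1 was higher in liver, 9 were higher in brain and 3 were not called (1 and 8 held under all 5 scalings), with a median 1.51 higher in brain. Without the brain array that held pituitary hormones 5 were higher in brain. Itm2a, Slco1c1 (a thyroid hormone transporter) and the drug exporter Abcb1a were higher in brain by 4.33, 3.65 and 2.88, and the exporter Abcg2, which also lines the bile canaliculus, was higher in liver by 3.56. Of 9 genes of choroid plexus and ependyma, Kcne2, Otx2, Folr1, Kl and Foxj1 were higher in brain by 4.27, 3.92, 3.61, 2.73 and 2.21, and Rarres2 (chemerin) and the water channel Aqp1 were higher in liver by 5.35 and 4.79, all 7 under all 5 scalings. These are read beside Ttr, whose levels in both tissues were close to the top of the scale. Of 12 genes of fat, muscle and pancreas 1 was called, Acta1 (skeletal actin), at 14.49, 14.40 and 14.27 in the brain arrays and 8.78, 9.19 and 7.99 in the liver arrays.

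**Figure D4:**
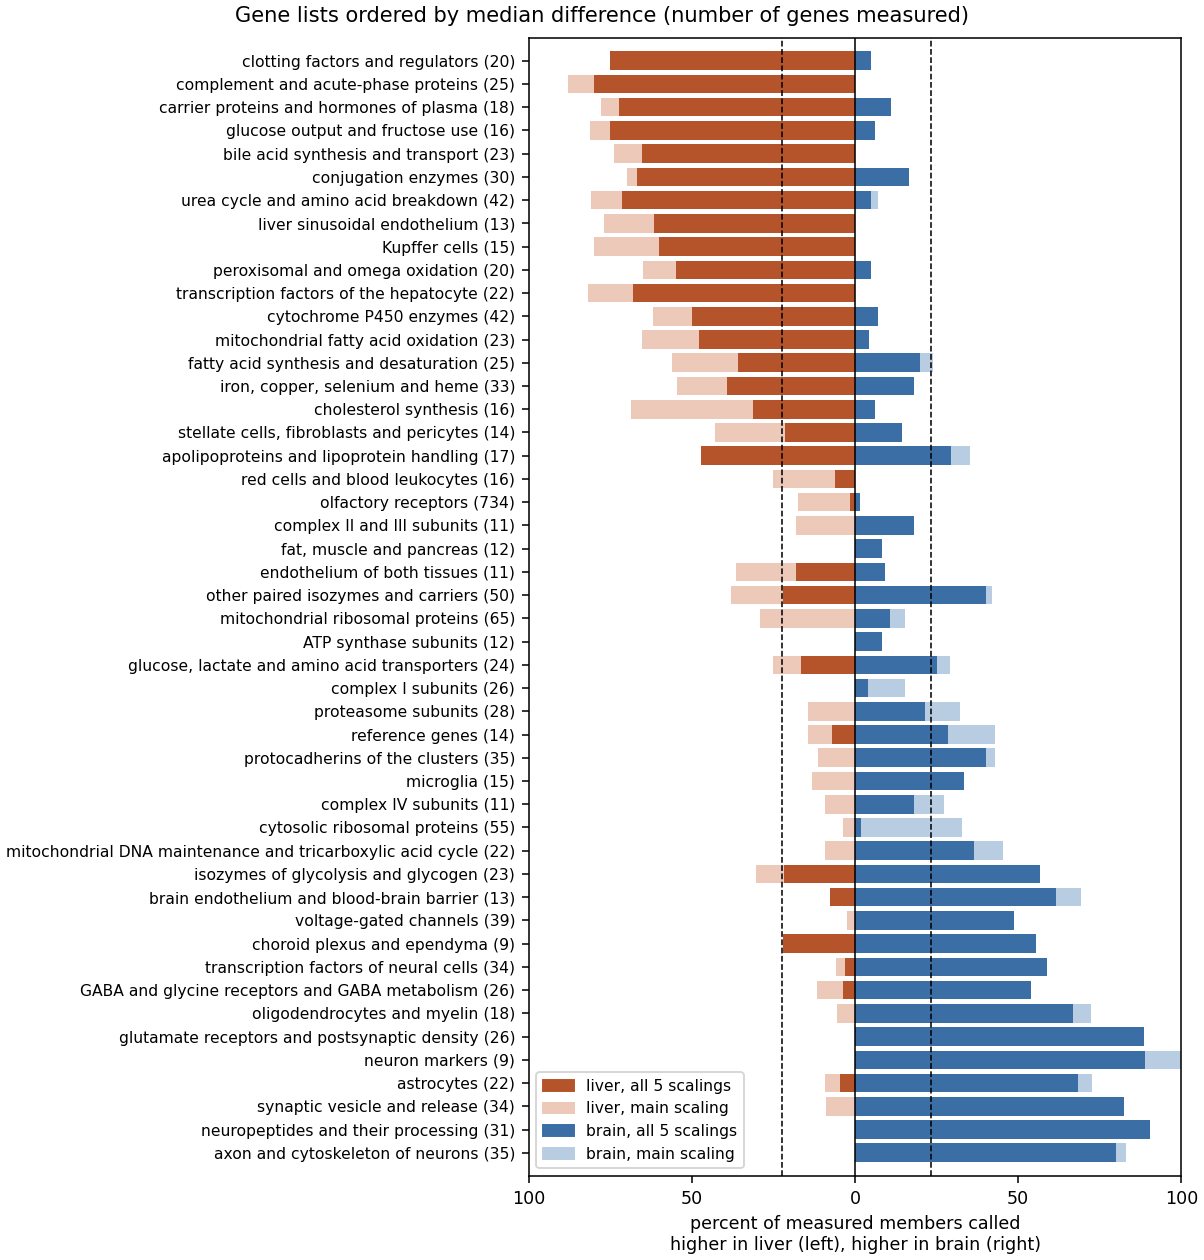
Percent of measured members of each list with 9 or more genes (x axis) that were called higher in liver (left, orange) or in brain (right, blue), with calls under all 5 scalings in the dark colour, ordered by median difference. Dashed lines mark the shares among all named genes, 22.4% for liver and 23.4% for brain.

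Many enzymes come in forms that different tissues use, and these separated clearly. 13 of 23 isozymes of glycolysis and glycogen were higher in brain and 7 in liver (13 and 5 under all 5 scalings). Hk1, the hexokinase of brain, read 15.01, 15.57 and 15.05 in the brain arrays and 7.78, 8.92 and 10.14 in the liver arrays, Eno2 (neuronal enolase) 17.61, 18.21 and 17.66 in the brain arrays and 10.73, 8.14 and 9.11 in the liver arrays and Aldoc (aldolase C) 19.20, 18.97 and 19.24 in the brain arrays and 13.41, 13.69 and 13.72 in the liver arrays. Ldhb, the lactate dehydrogenase subunit of oxidative tissues, was higher in brain by 6.47 (SE 0.21, adjusted p = 1.20e-05), and Ldha was higher in liver by 2.25 (SE 0.25, adjusted p = 0.000729). Pygb and Pygl, the brain and liver glycogen phosphorylases, read 16.01 in brain and 13.34 in liver and 9.45 in brain and 14.58 in liver. Gys1 and Gys2, the general and liver glycogen synthases, read 10.53 in brain and 9.39 in liver and 7.92 in brain and 17.59 in liver. Pklr, the liver pyruvate kinase, was higher in liver by 3.25, and Pfkm and Pfkp, phosphofructokinases of muscle and platelet type, were higher in brain by 3.37 and 2.45. Gapdh and Pgam1, which have no such partner here, read 20.16 in brain and 20.07 in liver and 17.98 in brain and 17.34 in liver and were not called.

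Of 50 other paired isozymes and carriers 21 were higher in brain and 19 in liver (20 and 11 under all 5 scalings). Fabp1, the fatty acid binding protein of liver, read 11.56, 11.95 and 8.69 in the brain arrays and 21.51, 21.51 and 21.51 in the liver arrays. It had the highest liver mean of all named genes, and quantile normalization gives the brightest probe of every array the same value. Fabp7, the form of glia and progenitors, read 16.97, 16.93 and 17.34 in the brain arrays and 12.75, 11.21 and 11.03 in the liver arrays, and Fabp3, the form of heart, 15.97, 15.98 and 16.09 in the brain arrays and 9.65, 9.39 and 9.54 in the liver arrays. Acyl-CoA synthetases differed in the same way, since Acsl5 was higher in liver by 3.93 while Acsl6, Acsl3 and Acsl4 were higher in brain by 3.32, 2.65 and 1.66. Scd1 was higher in liver by 1.53 under quantile scaling, without holding under all 5, and Scd2 in brain by 5.91. Alcohol dehydrogenases Adh1 and Adh4 were higher in liver by 10.24 and 9.21. Creatine kinases Ckb and Ckmt1, which buffer ATP, were higher in brain by 6.20 and 5.90. Eef1a2, the elongation factor of neurons and muscle, read 17.58, 17.95 and 17.89 in the brain arrays and 8.63, 9.52 and 7.77 in the liver arrays, whereas its partner Eef1a1 read 20.13 in brain and 20.71 in liver and was not called.

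**Figure D5:**
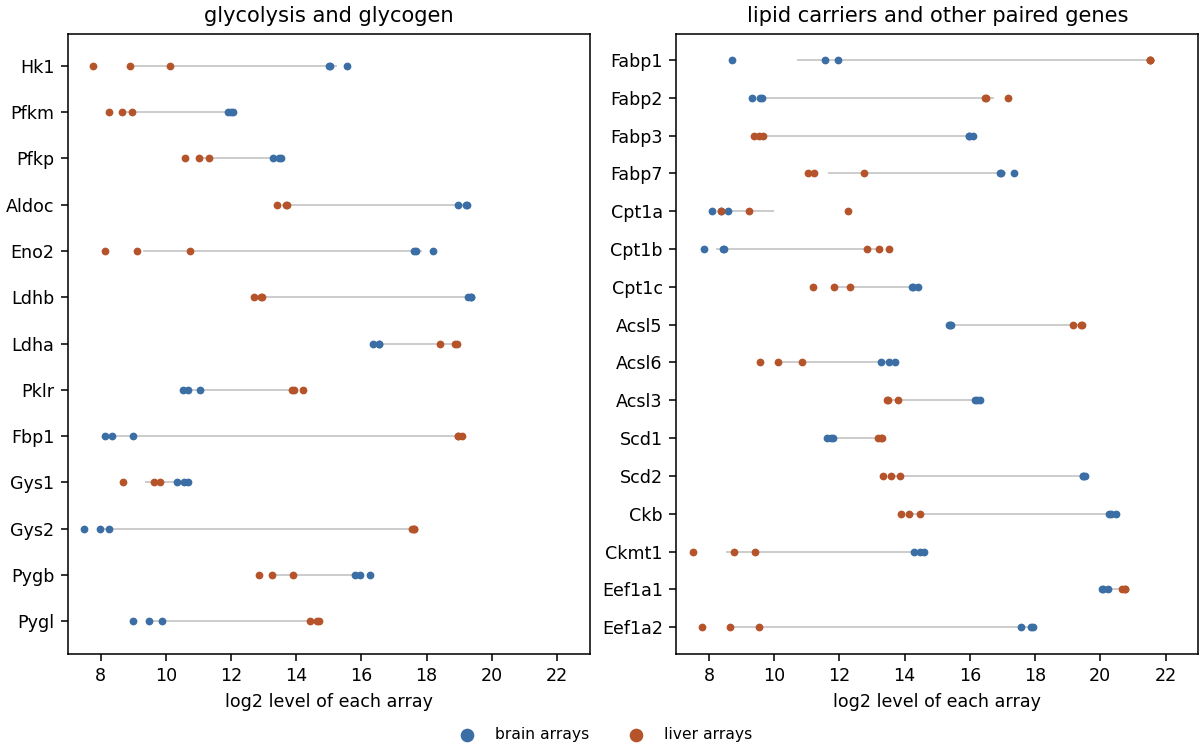
Log2 level (x axis) of each brain array (blue points) and liver array (orange points) for genes of glycolysis and glycogen (left) and of lipid carriers and other paired genes (right), with a grey line between group means. Fabp1, Fbp1 and Gys2 have their liver points on the right, and Eef1a2, Eno2 and Ldhb their brain points.

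7 of 24 glucose, lactate and amino acid transporters were higher in brain and 6 in liver (6 and 4 under all 5 scalings). These shares were not far above those of all named genes, of which 23.4% were higher in brain and 22.4% in liver. The members named next are therefore single genes and do not set this list apart. Slc38a4, Slc2a2 and Slc2a9 (a urate carrier) were higher in liver by 8.61, 7.94 and 5.02, and Slc7a10, Slc1a1 and Slc2a6 in brain by 6.81, 5.29 and 4.78. Of genes for metals and haem, Hamp, Tfr2, Hjv, Cp and Hfe, which sense or move iron, were higher in liver by 9.88, 7.79, 7.57, 7.27 and 5.51. Mt3, the metallothionein of brain, read 18.50, 18.76 and 17.98 in the brain arrays and 11.40, 12.33 and 12.43 in the liver arrays, and Mt1 was higher in brain too, by 4.83.

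Genes that every cell needs were read against the 45.8% of all named genes that were called. Of 55 genes of cytosolic ribosomal proteins, 2 were higher in liver, 18 were higher in brain and 35 were not called (0 and 1 held under all 5 scalings), with a median 0.54 higher in brain. Of 65 genes of mitochondrial ribosomal proteins, 19 were higher in liver, 10 were higher in brain and 36 were not called (0 and 7 held under all 5 scalings), with a median 0.22 higher in liver. Of 26 subunits of complex I, 0 were higher in liver, 4 were higher in brain and 22 were not called (0 and 1 held under all 5 scalings), with a median 0.24 higher in brain, and of 12 subunits of ATP synthase 11 were not called. The direction of these medians turned with the scaling: the cytosolic ribosomal median was 1.21 higher in brain with no scaling and 0.69 higher in liver after median scaling, and that of complex I 1.13 higher in brain and 0.77 higher in liver, while that of the mitochondrial ribosome was 1.11 higher in brain with no scaling. Without the brain array that held pituitary hormones 5 cytosolic ribosomal genes were higher in brain and 1 in liver, and 4 and 6 mitochondrial ones. Over all probes, calls fell without either other brain array too.

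A few genes of this kind stood far from their partners and held under all 5 scalings, and are named after their values were seen. Atp5c1, the gamma subunit of ATP synthase, read 16.63, 16.32 and 16.96 in the brain arrays and 11.09, 10.11 and 8.87 in the liver arrays, where none of the other 11 subunits was called. Psmc5, a proteasome ATPase, read 16.78, 16.82 and 16.73 in the brain arrays and 9.89, 10.07 and 11.26 in the liver arrays. Uqcrc1 of complex III read 15.92, 15.77 and 15.82 in the brain arrays and 11.84, 12.71 and 9.17 in the liver arrays and Suclg1 of the tricarboxylic acid cycle 14.72, 14.22 and 14.59 in the brain arrays and 8.19, 8.22 and 8.08 in the liver arrays. The reference genes Actb and Pgk1 did the same: Actb (beta-actin) read 17.86, 17.45 and 17.86 in the brain arrays and 10.74, 11.12 and 8.88 in the liver arrays and Pgk1 15.44, 15.12 and 15.64 in the brain arrays and 8.12, 10.15 and 10.54 in the liver arrays. In the other 3 groups of mice these differences were 6.55, 5.75 and 5.56 for Atp5c1, 6.90, 7.74 and 6.23 for Psmc5, 4.47, 5.09 and 4.74 for Uqcrc1, 6.62, 5.75 and 5.71 for Suclg1, 6.47, 7.44 and 7.83 for Actb and 6.83, 7.79 and 6.81 for Pgk1, all higher in brain. Each rests on 1 probe, and what sets its low level in liver was not tested.

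Olfactory receptor genes, which neither tissue is known for, served to describe signal without expected expression. Of 734 such genes 12 (1.63%) were higher in brain and 128 (17.4%) in liver, of which 10 and 12 held under all 5 scalings. Their median difference was 0.42 higher in liver, and 0.94 higher in brain with no scaling. Their median level was 8.40 in brain and 8.92 in liver, and the 90th percentile 10.07 and 11.34. Of the 2892 genes higher in brain under all 5 scalings, 74.4% had a liver mean under the liver percentile, and of the 1027 higher in liver 50.5% had a brain mean under that of brain. The former held, among others, Gcgr, Vtn, Agt and Acad9, and what sets their low liver signal was not tested.

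The promoters of the 2 sets differed in composition. RefSeq promoters were matched for 835 of 1014 genes higher in liver under all 5 scalings (82.3%) and 2306 of 2792 higher in brain (82.6%) on the chromosomes that the promoter table covers, and for 11162 of 13511 named genes. The median number of CG pairs in the 300 bases was 10 for liver genes (quartiles 4 and 20), 20 for brain genes (12 and 28) and 16 for all named genes (5 and 25). The TATA box TATAAA was in 15.3% of liver promoters, 7.59% of brain promoters and 12.3% of all, and GTTAAT in 8.86%, 3.90% and 5.72%. The CRE was in 1.44% of liver, 3.34% of brain and 2.54% of all promoters, and the GC box GGGCGG in 48.1%, 62.6% and 51.9%. The left arm of RE1 was in 0 liver promoters, in 0.347% of brain and in 0.349% of all, and the right arm in 0.359%, 0.650% and 0.591%. The E-box CAGATGG of neural factors was in 4.19% of liver, 3.34% of brain and 3.82% of all promoters, and the C/EBP site TTGCGCAA in 0.120%, 0.130% and 0.269%. Brain genes also spanned more of the genome, with a median of 24850 bases against 16598 for liver genes and 18280 for all. Of brain genes 4.62% lay on chromosome X, against 1.68% of liver genes and 3.61% of all. These shares are descriptions, and base composition alone changes how often letters occur.

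The same contrast was read in the other mice, whose arrays are separate. It called 12976 probes (39.3%) in Acads-/- mice on the LF diet, 12856 (38.9%) in Acads+/+ mice on the HF diet and 11109 (33.7%) in Acads-/- mice on the HF diet. Of the 1027 genes higher in liver under all 5 scalings, 1013 were called higher in liver in the Acads-/- LF group, 997 in the Acads+/+ HF group and 1001 in the Acads-/- HF group. Of the 2892 higher in brain, 2456, 2361 and 2290 were called so, and 2835 of the 3919 genes were called the same way in all 3. Over all named genes the shares called higher in brain and in liver were 24.1% and 23.4% in the Acads-/- LF group, 24.8% and 22.0% in the Acads+/+ HF group and 21.2% and 20.3% in the Acads-/- HF group. No probe passed the test of whether the tissue difference itself differed between the genotypes on the LF diet (limma, 12 arrays, 0 of 33012, or 0%, with a lowest adjusted p of 0.14), while 2004 had an unadjusted p under 0.05 with a 1.6-fold difference. Leaving out 1 array at a time gave 0 to 7 such probes, the most without the Acads-/- liver array of column number 17982. The lowest p among named genes was that of Aadacl4fm1, named after its values were seen, which read 10.25, 9.09 and 9.73 in the brain arrays and 11.74, 11.83 and 11.67 in the liver arrays in Acads+/+ mice and was higher in liver by 2.05, but was 2.26 higher in brain in Acads-/- mice.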

How the data were processed

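Total RNA of whole brain and liver, 1 array per sample, was labelled and hybridised by the authors to a 1-colour chemiluminescence platform of Applied Biosystems, the mouse genome survey array. The authors deposited, for each tissue, the signal intensity of every probe with no normalization between arrays, and a table of log2 values that they had quantile-normalized within each tissue and whose levels therefore cannot be compared between tissues as they stand. The signal-to-noise values and flags by which the study filtered probes were not used here, so undetected probes stayed in. The 2 signal tables were joined by probe and the 6 arrays quantile-normalized together (limma 3.58.1, R 4.3.3). Values under the 5th percentile (log2 7.50, signal 181) were raised to it, log2 was taken, and lmFit and eBayes were run on all 33012 probes. The fold and p thresholds of the study, 1.6 and 0.05, were used, here with p adjusted by Benjamini-Hochberg over all probes, whereas the study tested detected probes only. Of 14658 annotated probes 14411 named 1 gene and 247 named several and were not used. Each of 13840 genes was read by the probe of highest mean. Of 540 genes with several probes, 26 had probes called in opposite directions.

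Named genes were the 12 largest called differences each way with groups that do not overlap, the hepatocyte and neuron markers, Acads, Ppia, up to 6 leading members of each list and up to 4 called the other way, and any member of the isozyme, mitochondrial oxidation and ketone lists. Others are said to be named after their values were seen. The comparison, the lists and the rules were chosen with earlier results of these data known. The calls under all 5 scalings, the scaling on olfactory receptors and the block on column numbers were added after seeing the data. The other 3 groups were normalized and fitted on their own, and the 12 LF arrays together for the interaction. In data simulated on these 33012 probes with 200 changed, 0% of differences of 0.8, 2% of 1.2, 58% of 2 and 90% of 4 on the log2 scale were called, with 12 false calls. In the real data 37.4% of probes were called. With so few changed probes the adjusted p is stricter, so these rates do not describe how often such differences are found here. Arrays are read once each, and 3 per group limit the precision. The methods call the samples of a group biological replicates.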

Additional observations from a re-analysis of the deposited data

How the results depend on the processing

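The split of probes into higher in brain and higher in liver depended on how the arrays were scaled. The counts of 6246 and 6113 became 19791 and 1702 with no normalization, 10927 and 3061 when scaled on olfactory receptors, and 9815 were higher in liver after median scaling, while in the 25% of probes with the highest signal they were 2579 and 2864 of fewer probes tested. Re-normalizing the authors' log2 values, an offset of 500, a floor at the 25th percentile, a variance trend, the methods' t-test and the fit of all 24 arrays kept both counts within 1.5 times. Leaving out 1 array at a time gave 4809 to 6791 higher in brain and 4591 to 6618 higher in liver. The difference of Acads (brain minus liver) was -2.28 to -1.11 when 1 array was left out, passed the test without the liver array of column number 18021 (adjusted p = 0.0153) and in no other setting, and was 0.74 with no normalization. After median scaling 20132 probes were called in the Acads-/- LF group and 21277 in the Acads+/+ HF group, and 16691 were called with no normalization in the Acads-/- HF group. Leaving out 1 array gave 9928 to 14004, 9672 to 13291 and 8085 to 11005 calls in these 3 groups, and 0 to 7 for the interaction, which stayed at 0 under every scaling tried.

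Of 275 genes named, 252 were called and 236 held under all 5 scalings. With no normalization the sign turned (brain minus liver) for Acads (0.74), Aadacl4fm1 (0.34), Acat1 (1.16), C1qb (0.31), C1qc (0.18), Cpt1a (0.022), F5 (1.29), F7 (0.99), Fetub (0.55), Hadhb (0.64), Hrg (1.02), Itih4 (0.56), Olig2 (1.04), Plg (0.93), Scd1 (0.70), Serpina3n (1.12), Slc16a6 (1.55), Slc18a3 (1.22) and Slc6a13 (0.26). It turned after median scaling for Gapdh (-1.37), Glul (-0.14), Pgam1 (-0.46), Ppia (-0.47), Slc16a1 (-0.43) and Ttr (-1.15), when scaled on reference genes for F5 (0.045), Gapdh (-0.72), Slc16a6 (0.31) and Ttr (-0.49), when scaled on olfactory receptors for Acat1 (0.28), F5 (0.40), F7 (0.17), Gapdh (-0.36), Hrg (0.13), Olig2 (0.15), Plg (0.041), Serpina3n (0.24), Slc16a6 (0.66), Slc18a3 (0.33) and Ttr (-0.14), and in the fit of all 24 arrays for Aadacl4fm1 (0.069) and Gapdh (-0.055). Leaving out 1 array at a time gave -1.04 to 0.24 for Acat1, -1.07 to 0.40 for F7, -0.29 to 5.004 for Prl and -0.16 to 0.099 for Slc16a6. The cause was not tested.

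Deviations of brain and liver arrays of the same column number correlated at -0.06, -0.01 and 0.01. Tissues of 1 mouse need not share such deviations, so this cannot tell whether the numbers mark the same mice. With the replicate block on these numbers 5269 probes were higher in brain and 5042 in liver, and with the block on the authors' replicate numbers 5151 and 4951. The block took 10 of the named genes below the threshold and brought 1 above it in either fit.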
